A study of Homo sapiens with 12 samples.

Results

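The genes described here encode 10 SR-related proteins of nuclear speckles and the exon junction: PNN (pinin), ACIN1, SRRM1, SRRM2, SON, TRA2A, TRA2B, RBM39, LUC7L3 and BCLAF1. They were chosen by name and are 10 of the 59653 gene rows in the count table. The study sequenced RNA of human neurons grown from induced pluripotent cells made from IMR-90, a widely used fetal lung fibroblast line, so all libraries share 1 cell line. The cell type is labelled as neuron, while all 12 sample titles also carry the letters NPC, which the labels do not spell out. Cells of the 6 siNC libraries were treated with a negative control siRNA, and those of the 6 siZCC libraries with an siRNA against ZCCHC17; age in culture and time after the siRNA are not given in the sources used here. The labels number the samples of a group but do not say that they are separate cultures, so the p-values measure the spread between these samples, which may be technical.

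SR proteins and their relatives carry stretches in which arginine and serine alternate. These stretches are phosphorylated, hold the proteins in nuclear speckles and bring splicing factors together on pre-mRNA. PNN and ACIN1 are alternative scaffolds that bind RNPS1 and SAP18 and sit at the periphery of the exon junction complex, which marks spliced mRNA. ZCCHC17, also named pNO40, has been described as a protein that binds pinin. Several genes of this kind regulate their own mRNA through exons that lead to its decay; counts per gene do not show such exons, and splicing was not analysed here.

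After ZCCHC17 knockdown, 6 of the 10 genes were lower and 1 was higher. BCLAF1, TRA2A, PNN, LUC7L3, TRA2B and ACIN1 fell, SRRM1 rose, and SRRM2, SON and RBM39 did not pass the test (quasi-likelihood test of edgeR, Benjamini-Hochberg adjusted p under 0.05 over all 24671 genes tested; every adjusted p of a gene below comes from it). Over all genes tested, 22.2% passed, 10.8% lower and 11.4% higher. Calls were more frequent among abundant genes: of 2492 genes averaging at least 100 CPM (counts-per-million), 577 were higher and 320 lower. The lower ones were 12.8% of these genes, whose median log2 fold change was 0.019. Of the 10 genes, TRA2A averaged less than 100 CPM. The changes were small: the largest, of BCLAF1, was 1.15-fold. The median log2 fold change of the 10 genes was -0.084, against -0.0016 over all genes tested, and all 10 passed the filter on low counts. The 10 genes were chosen with earlier results of these data known, so their count is a description.

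Stretches before the RefSeq starts of PNN and BCLAF1, a pair among the genes that fell, and of SRRM1, the gene that rose, are shown for comparison. Each is a 100-base stretch, 5′ to 3′ on the gene's strand, that lies before the RefSeq start and outside the gene's GENCODE v29 exons (RefSeq table, GRCh38.p14). Those of PNN and BCLAF1 lie before the gene as GENCODE annotates it. The stretch of SRRM1 lies inside the annotated gene, between exons, because GENCODE also holds SRRM1 transcripts that start farther upstream. Capitals mark matches on either strand to CCAAT, to GGGCGG (a GC box) or to CCGGAA (an ETS core).
PNN, chr14:39175083-39175182, plus strand: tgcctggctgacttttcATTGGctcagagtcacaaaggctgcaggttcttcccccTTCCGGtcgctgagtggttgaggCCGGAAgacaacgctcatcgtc
BCLAF1, chr6:136289852-136289951, minus strand: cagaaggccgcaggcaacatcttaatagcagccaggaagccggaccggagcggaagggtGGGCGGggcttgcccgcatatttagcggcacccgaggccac
SRRM1, chr1:24643459-24643558, plus strand: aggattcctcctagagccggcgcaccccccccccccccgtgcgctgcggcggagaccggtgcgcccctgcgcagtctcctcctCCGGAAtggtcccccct
CCGGAA letters are present in the stretches of PNN, which fell, and SRRM1, which rose. Whether a motif goes with the direction of change was not tested. Over the 250 bases before the start, 8 of the 10 genes had an entry in the table; TRA2A and RBM39 were not matched. CCGGAA was found in 2 of these 8 and in 19.8% of the promoters of genes tested, CCAAT in 3 of 8 and in 32.4%, and GGGCGG in 4 of 8 and in 59% of them. No overlap between motifs was removed, and a match describes letters only.

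The libraries were deep enough that each of the 10 genes was counted at least 5728 times in every library. Totals per library were 90755953 to 120023356 counts for siNC and 76115083 to 105389055 for siZCC, so the knockdown libraries were shallower. ZCCHC17 itself stood at 53.99 to 60.99 counts-per-million (CPM) in siNC and at 9.37 to 10.6 CPM in siZCC, so the target was low in every library labelled as knockdown. As a check of the cell type label, the 10 neuron markers together held 2899 to 3290 CPM in siNC. RBFOX3, a marker of mature neurons, averaged 1.27 CPM there. The 8 neural progenitor markers together held 5751 to 6132 CPM in siNC, most of it from VIM, which averaged 3550 CPM. Astrocyte markers (6 genes) held 1580 to 1812 CPM, and 4 of 5 microglial markers averaged under 1 CPM.

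**Figure D1:**
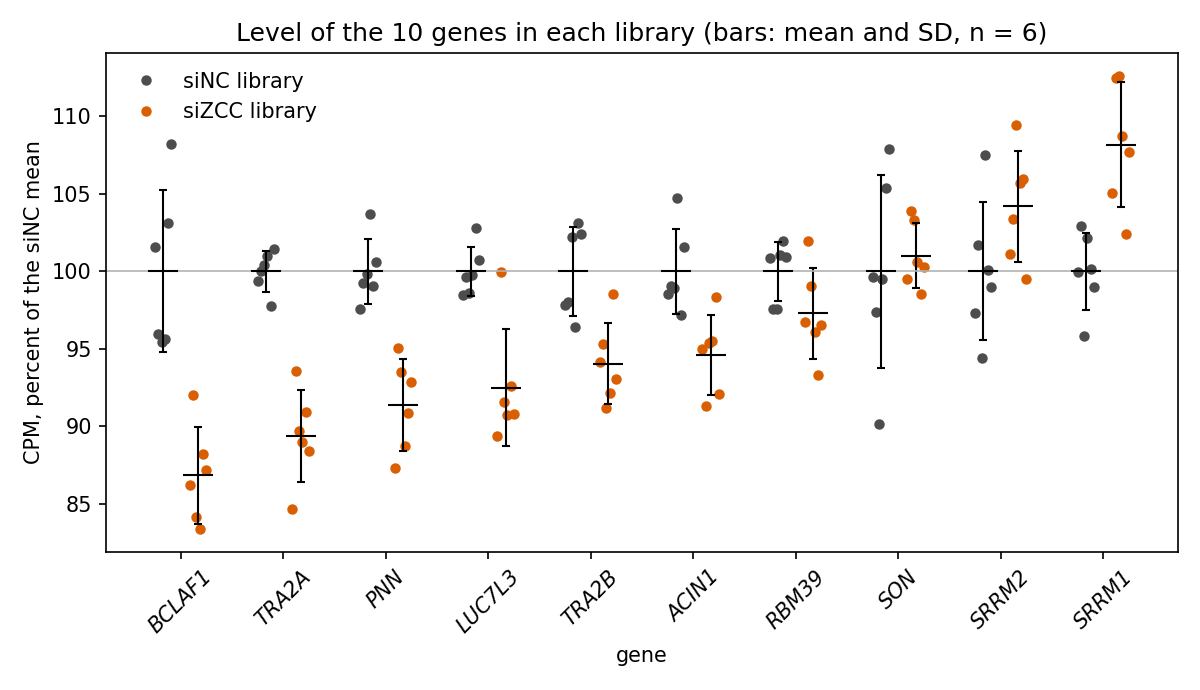
CPM of each of the 10 genes in every library, as a percent of that gene's siNC mean (points: libraries; bars: mean and SD, n = 6 per group). The siZCC points of BCLAF1, TRA2A and PNN all lie below the siNC points, while those of SON, SRRM2 and RBM39 overlap them.

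PNN and ACIN1, the alternative scaffolds of the complexes with RNPS1 and SAP18, both fell. PNN (chromosome 14, 39175183 to 39183218, plus strand, GENCODE v29 on GRCh38) had 195 CPM in its lowest siNC library, a median of 199 and a highest value of 207. In siZCC the lowest, median and highest values were 174, 183 and 190 CPM. Every siZCC library was therefore below every siNC library. This held for 3 of the 10 genes (PNN, TRA2A and BCLAF1) and for 4.5% of all genes tested, and the opposite separation for 0 of the 10 and 5.25% of all. The means were 199.6 ± 4.16 and 182 ± 5.91 CPM (SD, n = 6 each), a log2 fold change of -0.13 (SE 0.0274; adjusted p 0.00270, edgeR), or 91.4% of the control level.

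ACIN1 (chromosome 14, 23058564 to 23095614, minus strand), named for a role in chromatin condensation during apoptosis, ran from 306 through a median of 311 to 329 CPM in siNC and from 287 through 299 to 309 CPM in siZCC. The groups overlapped at a single edge, where siZCC replicate 5 stood at 309 CPM, above siNC replicate 5. Exons of C14orf119 on the opposite strand overlap 7.03% of the ACIN1 exon bases. C14orf119 gave a log2 fold change of -0.057 (SE 0.0336) and did not pass the test. The log2 fold change of ACIN1 was -0.080 (SE 0.0271; adjusted p 0.0426, edgeR). This call was the least firm of the 7: it was lost in 9 of the 12 fits made without a single library (all but those without siNC replicate 3, siNC replicate 5 or siZCC replicate 5), with an adjusted p of up to 0.105, and without the filter on low counts (0.0863).

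Whether PNN and ACIN1 responded differently was tested by their ratio within each library. The log2 ratio of PNN to ACIN1 counts was -0.66 ± 0.0176 in siNC and -0.71 ± 0.0753 in siZCC (SD, n = 6 each; difference -0.050, exact permutation test, two-sided, p = 0.134, adjusted 0.161 over 6 ratios). In 4 siZCC libraries the ratio was below every siNC library and in 1 it was above them all. Without siZCC replicate 2, that library, the difference was -0.072 (exact permutation test, adjusted p 0.0455). Leaving out any other single library gave an adjusted p of 0.14 to 0.335 by the same test. Their common partners gave log2 fold changes of 0.0014 (SE 0.0273) for RNPS1 and 0.0028 (SE 0.0283) for SAP18, neither of which passed the test.

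SRRM1, an SR-related matrix protein that works as a splicing coactivator and also joins the exon junction complex, was the only one of the 10 called higher. In siNC it ran from 126 through a median of 131 to 135 CPM. In siZCC it ran from 135 through 142 to 148 CPM. The groups met at the edge: siZCC replicate 5, the lowest of its group at 134.54 CPM, lay just below siNC replicate 2 at 135.19 CPM. The log2 fold change was 0.11 (SE 0.0295; adjusted p 0.0108, edgeR), or 108% of control. SRRM1 is annotated at 24631716 to 24673267 of chromosome 1, plus strand, and 10.5% of its 50-base transcript words also occur in transcripts of other genes, so some of its reads could be placed elsewhere or dropped.

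SRRM2 and SON, large proteins that form the core on which speckles are built, did not pass the test. SRRM2 (chromosome 16, 2752329 to 2772538) had 871 to 992 CPM in siNC, with a median of 918, and 918 to 1010 CPM in siZCC, with a median of 964. Its log2 fold change was 0.059 (SE 0.0325; adjusted p 0.210, edgeR). SON (chromosome 21, 33542618 to 33577481) had a median of 491 CPM in siNC and 496 CPM in siZCC. Its siNC libraries were the more scattered, from 445 to 533 CPM, and enclosed all siZCC libraries, which ran from 486 to 513 CPM. The log2 fold change of SON was 0.015 (SE 0.0364; adjusted p 0.819), with a sign that turned to -0.0088 when libraries were scaled by their totals alone and to -0.013 without siNC replicate 3. Exons of DONSON and GART on the opposite strand overlap 2.33% and 2.09% of the SON exon bases; DONSON, needed for starting DNA replication, rose by 0.12 on the log2 scale (SE 0.0362; adjusted p 0.0301, edgeR), and GART gave -0.0081.

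The ratio of SRRM1 to SRRM2 did not pass the test, although 5 of 6 siZCC libraries lay above every siNC library. Its log2 value was -2.81 ± 0.0397 in siNC and -2.76 ± 0.0618 in siZCC (SD, n = 6 each; difference 0.053, exact permutation test, two-sided, p = 0.115, adjusted 0.161 over 6 ratios). The rise of SRRM1 was thus not shown to differ from the value of SRRM2. Among the 5 siZCC libraries above every siNC library, replicates 3 and 4 were so by a narrow margin. Their log2 ratios were -2.7706 and -2.7709, against -2.772 in siNC replicate 1. Without siZCC replicate 5 the difference was 0.074 (exact permutation test, adjusted p 0.0130). Leaving out any other single library gave an adjusted p of 0.156 to 0.27 by the same test.

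TRA2A and TRA2B, sequence-specific relatives of the SR proteins that bind GAA-rich exonic enhancers, both fell. TRA2A (chromosome 7, 23504780 to 23532041, minus strand) varied least of the 10 between siNC libraries, where it ran from 84.1 through a median of 86.1 to 87.2 CPM. In siZCC it ran from 72.7 through 76.8 to 80.4 CPM, so the groups did not overlap. Its log2 fold change was -0.16 (SE 0.0271; adjusted p 4.53e-04, edgeR). TRA2B (chromosome 3, 185915906 to 185938136, minus strand) ran from 136 through 141 to 145 CPM in siNC and from 128 through 132 to 139 CPM in siZCC. Here the groups overlapped, with siZCC replicate 5 above 3 siNC libraries.

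The log2 fold change of TRA2B was -0.088 (SE 0.0280; adjusted p 0.0310, edgeR). Its call was lost in 5 of those 12 fits (siNC replicate 3, 5 or 6, siZCC replicate 3 or 4; adjusted p 0.0543 to 0.0787), with the offset for GC content and length (adjusted p 0.0819) and without the filter on low counts (0.0570). The log2 ratio of TRA2A to TRA2B counts went from -0.71 ± 0.0501 to -0.79 ± 0.0519 (SD, n = 6 each; difference -0.074, exact permutation test, two-sided, p = 0.0346, adjusted 0.0693). The larger change of TRA2A was therefore not shown over the 6 ratios. Without siNC replicate 5 or siZCC replicate 2 the adjusted p was 0.0325 or 0.0455. Leaving out any other single library gave 0.0563 to 0.13 by the same permutation test. No 50-base word of TRA2A transcripts occurs in TRA2B.

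BCLAF1, an RS-rich nuclear protein that works with its relative THRAP3 in mRNA processing, gave the largest change of the 10. It ran from 177 through a median of 183 to 200.4 CPM in siNC and from 154 through 160 to 170 CPM in siZCC, with no overlap. In siNC, replicates 1, 5 and 6 (188 to 200.4 CPM) stood above replicates 2, 3 and 4 (177 to 178 CPM). The log2 fold change was -0.20 (SE 0.0355; adjusted p 6.45e-04, edgeR), or 86.9% of control. BCLAF1 (chromosome 6, 136256627 to 136289851, minus strand) shares 18.3% of its 50-base words with the pseudogene BCLAF1P2, which was given 70 to 151 counts per library against 11557 to 23312 for BCLAF1.

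THRAP3 also fell, from 192 ± 2.98 to 179 ± 2.87 CPM (SD, n = 6 each), with no overlap of the groups and a log2 fold change of -0.10 (SE 0.0234; adjusted p 0.00573, edgeR). The log2 ratio of BCLAF1 to THRAP3 was lower in siZCC: it was -0.056 ± 0.0632 in siNC and -0.16 ± 0.0440 in siZCC (SD, n = 6 each). The difference was -0.10 (exact permutation test, two-sided, p = 0.0130, adjusted 0.0390), and 5 of 6 siZCC libraries lay below every siNC library. This call was lost in 6 of the 12 fits without a single library (siNC replicate 1 or 6, siZCC replicate 1, 3, 4 or 6; adjusted p 0.0519 to 0.0693).

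LUC7L3, a relative of the yeast U1 snRNP protein Luc7 that takes part in choosing 5′ splice sites, fell, and 5 of its 6 siZCC values were under the whole siNC range. It ran from 319 through a median of 323 to 333 CPM in siNC. In siZCC it ran from 289 through 295 to 323 CPM, and the highest value belonged to siZCC replicate 2, while the other 5 libraries stood at 289 to 299.6 CPM. The log2 fold change was -0.11 (SE 0.0286; adjusted p 0.00959, edgeR), and -0.14 without siZCC replicate 2. LUC7L3 is annotated at 50719544 to 50756213 of chromosome 17, plus strand.

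Its relative LUC7L2, which also binds U1 snRNP, averaged 57.9 ± 1.77 CPM with the control siRNA and 58.7 ± 2.63 CPM with the knockdown (SD, n = 6 each; log2 fold change 0.020, SE 0.0329), and LUC7L gave 0.046 (SE 0.0338); neither passed the test. The log2 ratio of LUC7L3 to LUC7L2 went from 2.48 ± 0.0323 to 2.35 ± 0.0280, a difference of -0.13. All 6 siZCC libraries lay below every siNC library (exact permutation test, two-sided, p = 0.00216, the smallest that 6 against 6 libraries can give, adjusted 0.0130). Leaving out 1 library cannot undo such a separation, so those fits add no further check. Permuting within replicate numbers, which allows no p below 0.0312, gave an adjusted p of 0.125. Of the LUC7L2 words, 20.8% are shared with a readthrough transcript of the same locus, so its level may be set too low by reads that could not be assigned.

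RBM39, a splicing factor related to U2AF2 and the target of sulfonamide degraders, ran from 244 through 252 to 255 CPM in siNC and from 233 through 241 to 254 CPM in siZCC. In siZCC, replicates 2 and 3 lay inside the siNC range and the other 4 libraries lay below it. The log2 fold change of RBM39 (chromosome 20, 35701347 to 35742312) was -0.040 (SE 0.0265; adjusted p 0.315, edgeR). Its relative RBM23 gave -0.068 (SE 0.0275; adjusted p 0.0871), and their log2 ratio was 1.11 ± 0.0545 in siNC and 1.14 ± 0.0866 in siZCC (SD, n = 6 each; difference 0.028, exact permutation test, two-sided, p = 0.513, adjusted 0.513). Without siZCC replicate 2 this difference was 0.0079, and without siZCC replicate 5 it was 0.053.

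**Figure D2:**
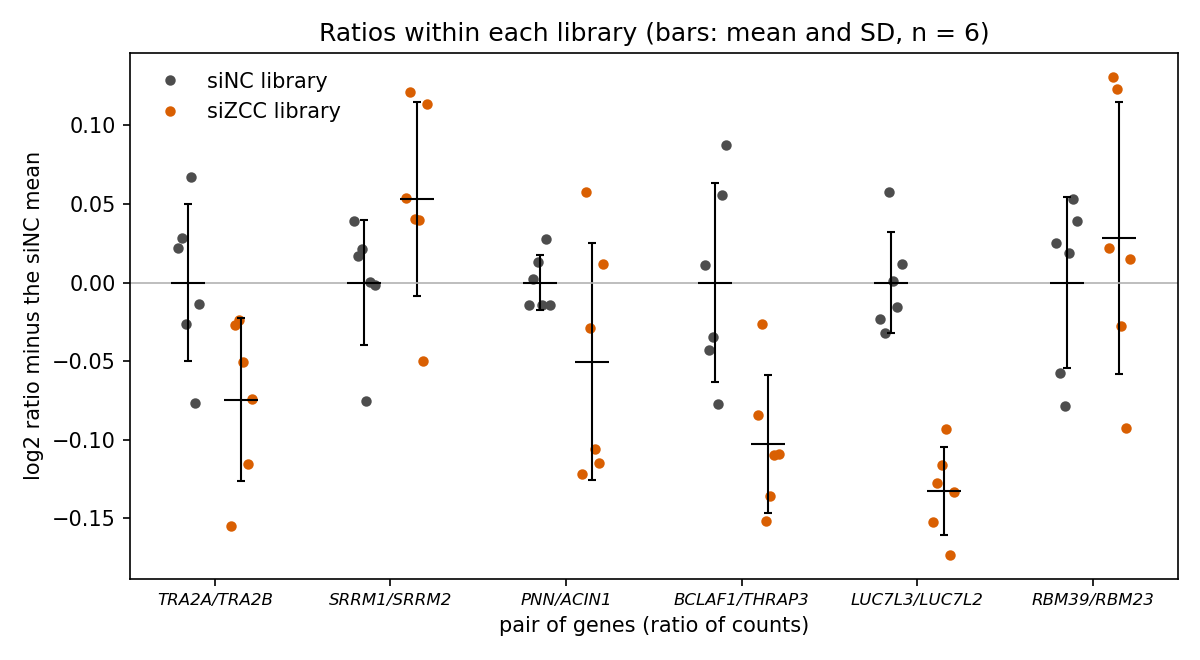
Log2 ratio of counts of 6 gene pairs in each library, minus the siNC mean of that ratio (points: libraries; bars: mean and SD, n = 6 per group). The LUC7L3/LUC7L2 ratio is lower in all 6 siZCC libraries, and 5 of 6 siZCC libraries are below all siNC libraries for BCLAF1/THRAP3.

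Per length, the 10 genes spanned a wider range of levels than any of them did between the groups, although some neighbours in the order lay close together. In siNC, SRRM2 was highest at 69.5 ± 3.10 CPM per kb of GENCODE exons (SD, n = 6). It was followed by PNN (47.5 ± 0.989), LUC7L3 (39.7 ± 0.635), SON (37.5 ± 2.34) and ACIN1 (34.5 ± 0.942). LUC7L3 and SON overlapped in siNC, at 39.1 to 40.8 and 33.8 to 40.4 CPM per kb, and so did SON and ACIN1. Lower levels per kb were those of TRA2A (24.4), RBM39 (20.9), BCLAF1 (19.4), SRRM1 (16.1) and TRA2B (11.97).

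The order depends on the length used. Per kb of the longest GENCODE transcript, ACIN1 came after SRRM2 (63.7 and 98.6 CPM per kb), followed by SON (56.0) and PNN (55.8), and BCLAF1 was lowest at 24.0. Together the 10 genes took 0.297% to 0.315% of all counts in siNC and 0.291% to 0.305% in siZCC.

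**Figure D3:**
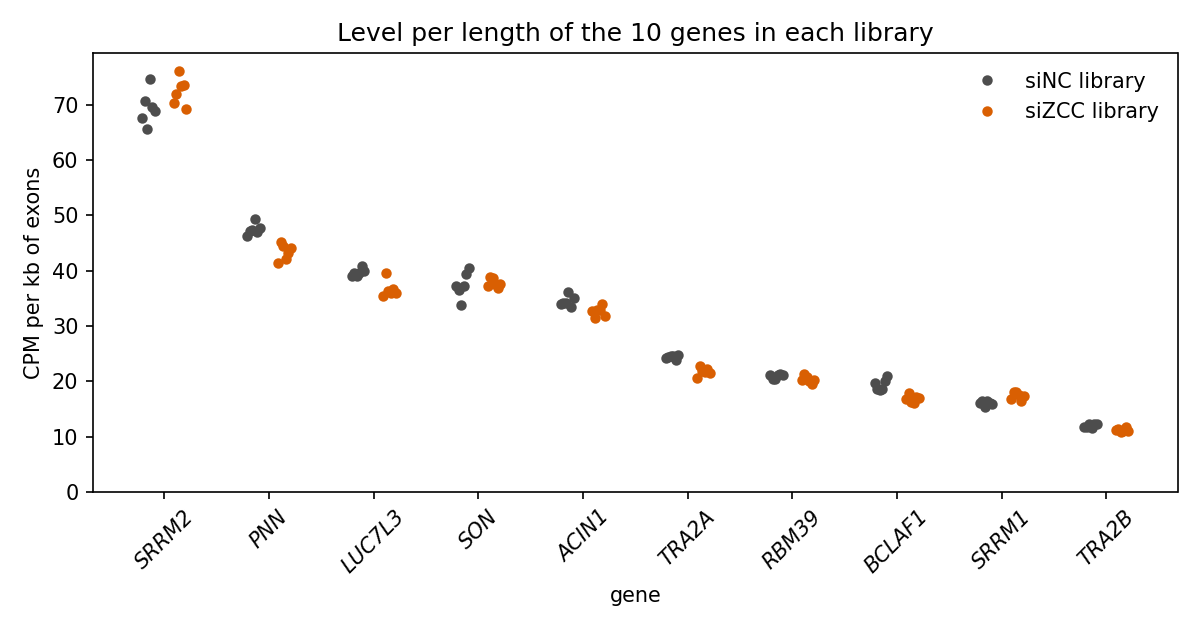
CPM per kb of GENCODE v29 exons of each gene in every library (points: libraries, 6 per group), ordered by the siNC mean. SRRM2 stands highest near 70 and TRA2B lowest near 12 CPM per kb.

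The profile most like that of PNN was sought over the 12624 other genes that averaged 5 CPM or more, as the smallest root mean square difference of mean-centred log2 CPM over the 12 libraries. The nearest were NT5C2 (a cytosolic nucleotidase; 0.0232), ZNF587 (a zinc finger gene; 0.0286) and ZCCHC8 (a zinc knuckle subunit of the nuclear exosome targeting complex; 0.0287). Among the other 9 genes, TRA2A was nearest to PNN, at place 6 with 0.0302, and LUC7L3 was at place 45 with 0.0363. ACIN1, RBM39 and TRA2B stood at places 711, 820 and 907, and SRRM1 was farthest, at place 8210. The log2 fold changes of NT5C2, ZNF587 and ZCCHC8 were -0.13, -0.083 and -0.10, with adjusted p of 0.00368, 0.0544 and 0.0288 (edgeR); likeness over the 12 libraries includes the difference between the groups, so these values are a description.

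Other genes of the pathway were counted by list. Of 9 genes of the exon junction complex and its partners, 1 was higher and 0 lower, or 11.1% called against 22.2% of all genes tested, with a median log2 fold change of -0.050. The one that rose was CASC3, a core subunit that promotes mRNA decay, from 164 to 183 CPM in siNC to 185 to 196 CPM in siZCC (log2 fold change 0.11, SE 0.0284; edgeR's quasi-likelihood test, adjusted p 0.0127). The core helicase EIF4A3 gave -0.059 (SE 0.0284) and RBM8A -0.050 (SE 0.0262), and neither passed. Of 7 close relatives of the 10 genes, THRAP3 was called lower and 0 higher (14.3% called), with a median of -0.040; SRRM4, the neural microexon regulator, gave -0.16 (SE 0.0562; adjusted p 0.0516).

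Of 31 other SR-related and RS-domain genes, 1 was higher and 2 lower, with a median of -0.026. The DEAD-box helicase DDX46, which acts in branch-site recognition, fell by 0.12 on the log2 scale (SE 0.0271; adjusted p 0.00438), and SUGP1, an SF3B1 partner, fell by 0.092 (SE 0.0298; adjusted p 0.0343). CHERP, a U2 snRNP-associated protein, rose by 0.11 (SE 0.0313; adjusted p 0.0204). These calls by edgeR were 9.68% of the 31 genes, against 22.2% of all genes tested. Log2 fold changes of the 31 genes ran from -0.12 to 0.13, and 20 were below 0. The highest, of NKTR, did not pass (SE 0.0493, adjusted p 0.0700, edgeR). Among genes with values near 0, SREK1, PNISR, RBM25 and SNRNP70 had log2 fold changes of -0.026, -0.0050, 0.0075 and 0.020. U2AF1 has a near-identical copy in the annotation, so its counts are uncertain.

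**Figure D4:**
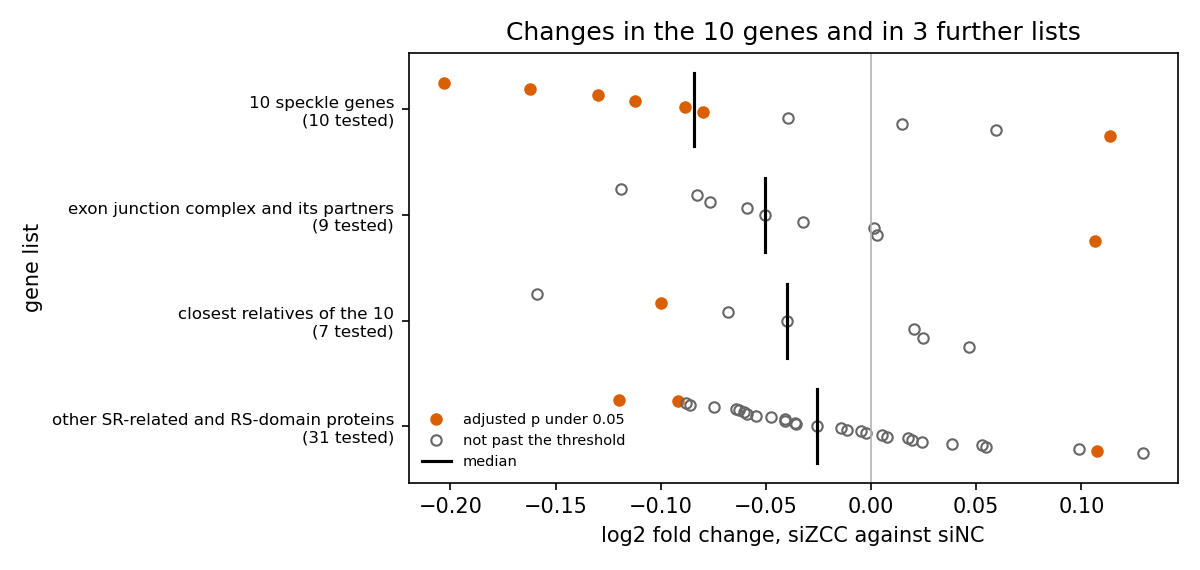
Log2 fold change of the 10 genes and of the genes in 3 further lists (filled points: adjusted p under 0.05; open points: not past the threshold; vertical lines: list medians). The medians are -0.084, -0.050, -0.040 and -0.026 from top to bottom.

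Some technical and cell-type measures moved with the groups. The TMM scaling factors were 1.0003 to 1.0163 in siNC and 0.984 to 0.998 in siZCC. With library totals alone the same 7 genes were called, with log2 fold changes of -0.23 for BCLAF1, -0.15 for PNN and 0.0900 for SRRM1. Over all genes this scaling gave 2171 higher and 3439 lower, against 2818 and 2663 with TMM. All 6 dividing-cell markers were lower, their sum running from 531 to 608 CPM in siNC and from 407 to 482 CPM in siZCC. Of 10 neuron markers, 5 were lower and 1 higher, with sums of 2899 to 3290 and 2664 to 3008 CPM. Other lists moved in both directions. Of 8 neural progenitor markers, 3 were higher (SOX2 by 0.20, PAX6 by 0.15 and HES5 by 0.35 on the log2 scale) and FABP7 was lower, with sums of 5751 to 6132 and 5802 to 6327 CPM. Of 6 astrocyte markers, SLC1A3 (log2 fold change 0.30) and ALDH1L1 (0.42) were higher and AQP4 lower, with sums of 1580 to 1812 and 1644 to 1972 CPM. Of 6 mesenchymal or fibroblast markers, PDGFRB was higher (0.42) and 2 were lower. Over all genes tested, 10.8% were lower and 11.4% higher. The part of these markers in the changes of the 10 genes was not tested, and in such cultures fewer cells of a type and less RNA per cell cannot be told apart.

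Base composition and a library split were examined as well. The longest transcripts of BCLAF1, LUC7L3, TRA2B, PNN and TRA2A had 36.4% to 41.1% GC and fell, as did ACIN1 at 53.4%. RBM39, which did not pass, had 41.6%, and SON, SRRM1 and SRRM2, with a log2 fold change above 0, had 47.5% to 56.2%. With an offset for GC content and length, 6 of the 7 calls held and that of TRA2B was lost. The log2 fold changes of PNN, TRA2A and TRA2B shrank, from -0.13, -0.16 and -0.088 to -0.10, -0.13 and -0.066. Those of BCLAF1, LUC7L3, ACIN1 and SRRM1 grew, from -0.20, -0.11, -0.080 and 0.11 to -0.21, -0.12, -0.090 and 0.12. In each group, 3 libraries had more than 1 CPM of IL1B and 3 had under 0.1 CPM. The log2 fold changes of PNN were -0.17 (adjusted p 0.0200) in the high libraries alone and -0.094 (adjusted p 0.172) in the low ones, and those of BCLAF1 were -0.22 and -0.19, both past the threshold (edgeR, 3 libraries per group). In either set all 10 genes had the direction found with all libraries, and BCLAF1 was the only gene of the 10 called in both.

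**Figure D5:**
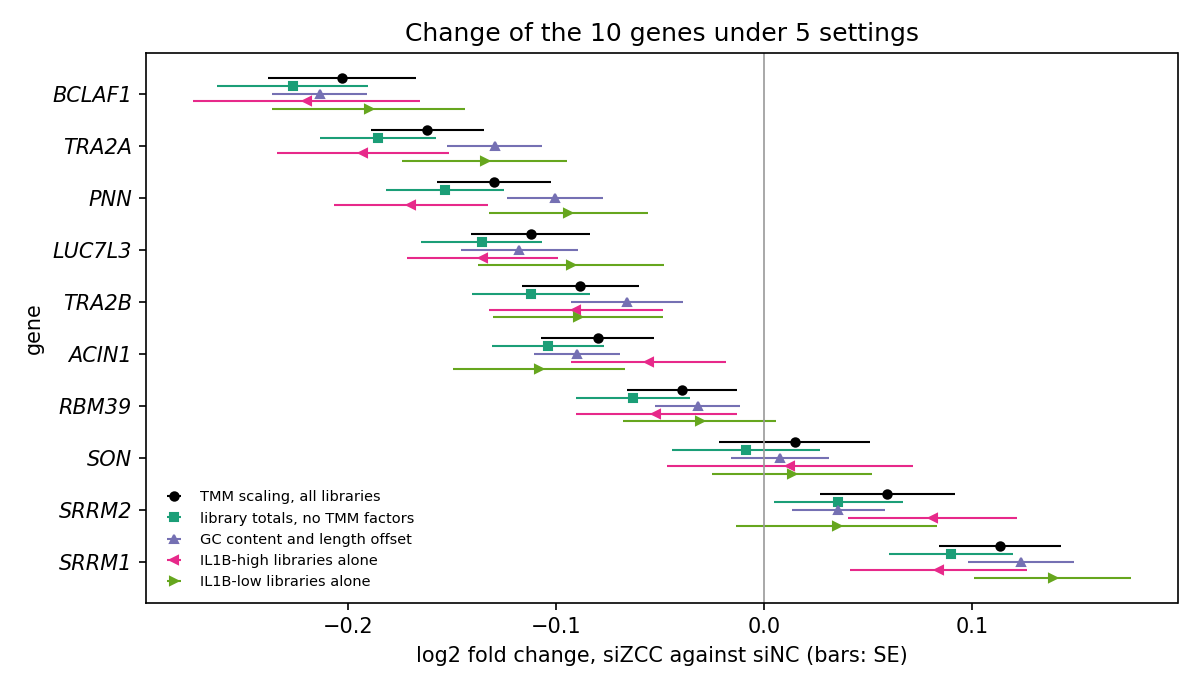
Log2 fold change, siZCC against siNC, of the 10 genes under 5 settings of processing or libraries (points: estimates; bars: SE). BCLAF1, TRA2A, PNN, LUC7L3, TRA2B, ACIN1 and RBM39 stay below 0 and SRRM1 and SRRM2 above 0 in all 5, while SON changes sign.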

How the data were processed

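The labels' protocols state lysis in Qiazol and the NEBNext Ultra II Directional library kit on total RNA. The submitters' processing notes name bcl2fastq 2.17, STAR 2.7.6a, featureCounts 2.0.1 and GRCh38; the annotation and strand setting are not given in the sources used here, so how reads of overlapping or antisense genes were shared out is unknown. The authors deposited raw counts per gene symbol, 1 column per library, with 0 columns left out here. GENCODE v29 held 92.2% of the symbols and gave positions, lengths and GC content.

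The raw counts were fitted with edgeR 4.0.16 in R 4.3.3 (filterByExpr, 24671 genes kept; TMM; glmQLFit and glmQLFTest over all 12 libraries, no covariates), with Benjamini-Hochberg adjustment over all genes kept. A standard error is the log2 fold change divided by the square root of F. TMM-scaled CPM is given, and its log2 has a prior count of 2 added. Ratios within a library were compared by exact permutation over 924 assignments, adjusted over 6 ratios. The biological coefficient of variation was 6.55%. The fit was tested on simulated data.

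The members and lists were chosen with earlier results of these data known. Named genes are the 10 members, ZCCHC17, the genes of the 6 ratios, up to 2 genes per direction with the smallest p in each of the 3 lists, and the 3 genes most like PNN; other genes were named after their values were seen. Alternatives were DESeq2 size factors, upper quartile scaling, no filter or a mean count of at least 50, DESeq2 1.42.0, limma 3.58.1 voom, a replicate block, the IL1B split as a block and apart, a GC and length offset (94.9% of genes had values), and leaving out each library; scaling by totals alone was chosen after seeing the data. Figures were drawn with matplotlib 3.10.9 in Python 3.11.15.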

Additional observations from a re-analysis of the deposited data

Results flagged for a closer look

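In 38 groups of 6 values (the 10 genes, ZCCHC17, library totals, the summed share of the 10 genes and the 6 ratios, in each group), 3 had a highest or lowest library whose gap to the next exceeded Dixon's critical share of the range; chance alone gives about 1.9. The siZCC replicate 2 library was the highest of its group for LUC7L3, at 8.34 in log2 CPM against 8.18 to 8.23 in the other 5. The siNC replicate 4 library had the lowest total of its group, 90755953 counts against 109973707 to 120023356. It was also the lowest siNC library for the log2 ratio of SRRM1 to SRRM2, at -2.89 against -2.81 to -2.77.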

How the results depend on the processing

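Of 240 values of single genes under the 24 alternatives, 238 kept their direction; both that turned were SON, at -0.013 without siNC replicate 3 (up to 0.039 without other libraries) and -0.0088 with library totals alone. The 7 calls became 5 to 7 when 1 library was left out, 5 without the filter on low counts (TRA2B and ACIN1 lost), 6 with the GC and length offset (TRA2B lost), 4 in the IL1B-high libraries and 1 in the IL1B-low libraries, where 3 libraries per group enter; genes called overall were then 2043 and 1602. The count for the exon junction list, 1, was 2 with upper quartile scaling, a mean count of at least 50 or the DESeq2 test. It was 4 with library totals alone, 0 in either IL1B set, and 1 to 2 without single libraries. The count for close relatives, 1, was 2 with upper quartile scaling, either other filter, the replicate block, the IL1B block or the GC offset. It was 3 with the DESeq2 test or library totals alone, 0 in either IL1B set, and 1 to 2 without single libraries. The count for the other SR-related genes, 3, became 5 with the GC offset or library totals alone and 0 in either IL1B set. It was 2 without the filter on low counts or with the replicate block, and 2 to 4 without single libraries. Without single libraries the differences of log2 ratios ran from -0.090 to -0.058 for TRA2A/TRA2B, 0.038 to 0.074 for SRRM1/SRRM2, -0.072 to -0.036 for PNN/ACIN1, 0.0079 to 0.053 for RBM39/RBM23 and -0.12 to -0.085 for BCLAF1/THRAP3. Replicate numbers gave no sign of pairing (r of their deviations from the group means was -0.077 to 0.018). With the replicate block, 5 of the 10 genes were called, without TRA2B (adjusted p 0.0575) and ACIN1 (0.0898), and permuting within numbers, which allows 64 sign patterns and no p below 0.0312, left the differences of BCLAF1/THRAP3 at -0.10 and LUC7L3/LUC7L2 at -0.13 with an adjusted p of 0.125 each. Causes of these shifts were not tested. Each of the 10 genes had at least 5728 counts in every library, and no fit at matched depth was run.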
